A study of Mus musculus with 12 samples.

Results

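The nuclear-encoded subunits of the mitochondrial respiratory chain and ATP synthase were followed across the livers of wild type (WT), ERKO and MOER mice given oil or PPT. Members were the genes whose symbol on the array platform begins with Ndufa, Ndufb, Ndufc, Ndufs, Ndufv, Uqcr, Cox4i, Cox5, Cox6, Cox7, Cox8 or Atp5, together with Sdha, Sdhb, Sdhc, Sdhd and Cyc1, read from probe sets with 1 symbol and represented by the probe set of highest mean. The rule used no measured change. It found 90 of the 19935 genes that have such a probe set: 36 of complex I, 4 of complex II, 9 of complex III, 17 of complex IV, 17 of ATP synthase, and 7 assembly factors (Ndufaf1 to Ndufaf7) that the prefix Ndufa takes in. Of these, 89 were bright enough to test, and the other, Cox7b2, gave intensities between 12.4 and 23.7 in the 12 arrays. Cox7c and Ndufb4 are paired with other symbols on the platform and are not members.

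Total RNA of whole liver was measured on a whole-transcript Affymetrix array in ovariectomized mice, 3 months old and of a strain labelled C57BL/6 in every group. Per the labels, ERKO mice lack oestrogen receptor alpha and MOER mice have it at the membrane alone. The labels name neither the alleles nor the promoter or cell type that drives the membrane receptor. After 1 week of recovery from surgery, each of the 6 groups received for 3 days either 100 µg per day of PPT, an agonist of oestrogen receptor alpha, or 0.1 mL of oil by intraperitoneal injection. Each group has 2 arrays, each hybridised with the pooled RNA of 3 animals. The labels do not show that both arrays of a group came from separate pools, so p-values measure the spread between these arrays, which may be technical.

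The respiratory chain sits in the inner mitochondrial membrane. Complex I takes electrons from NADH and complex II from succinate, complex III passes them from ubiquinol to cytochrome c, complex IV hands them to oxygen, and ATP synthase uses the resulting proton gradient to make ATP. Most subunits are encoded in the nucleus, and a few catalytic ones of complexes I, III, IV and ATP synthase in mitochondrial DNA. Liver uses the chain to burn fatty acids and to power gluconeogenesis and urea synthesis. Several complex IV subunits exist as isoforms, of which Cox6a2, Cox7a1 and Cox8b are the striated muscle forms and Cox6a1, Cox7a2 and Cox8a the widely expressed ones. The promoters of many of these genes are known to bind NRF1, the ETS factor GABP, YY1 and oestrogen-related receptors.

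The samples were checked first. Esr1, the gene of the receptor, gave 347 and 365 in the WT oil arrays and 309 and 325 after PPT, against 118 to 162 in the 4 ERKO arrays and 117 to 131 in the 4 MOER arrays. It set WT apart from the other genotypes, but its values overlapped in ERKO and MOER and cannot tell these apart. Hepatocyte markers were high in every group, with albumin (Alb) between 14804 and 21848. Replicate arrays agreed closely in 5 groups, with Pearson's r of 0.994 to 0.996 over the tested probe sets, which are not independent. In ERKO oil the correlation was lower, at 0.981, and values of 162 probe sets lay over 2-fold apart. Replicate 2 of ERKO oil was lower than replicate 1 for 82 of 89 members, with a median difference of -0.218 on the log2 scale against -0.155 over all 13987 genes tested. The counts over all members and for most lists called against ERKO oil are therefore given with and without either array. Counts by complex come from all 12 arrays alone. In the ERKO response they change for most complexes when either ERKO oil array is left out. The 12 skeletal muscle markers stood high in ERKO PPT and 11 pancreatic acinar markers in MOER oil. Their values stand beside the results they touch.

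Promoters were read from RefSeq (GRCm38.p6), which held an entry for 73 of the 90 members, 78 promoters in all, from 250 bases before to 50 bases after the start. The last 150 bases before the start are shown for the muscle isoforms Cox8b and Cox7a1, which carry the largest changes of the set, for their widely expressed counterparts Cox8a and Cox7a2, and for 3 genes of complex II, all of whose subunits fell in WT. Capitals mark matches, on either strand, to NRF1 (TGCGCANGC), ETS (CCGGAAG), ERR (TCAAGGTCA), YY1 (AAGATGGC), SP1 (GGGCGG) or the E-box of muscle factors (CAGCTG), the last chosen after the data were seen. Each line is read 5′ to 3′ on the gene's own strand and ends at the base before the start.
Cox8b: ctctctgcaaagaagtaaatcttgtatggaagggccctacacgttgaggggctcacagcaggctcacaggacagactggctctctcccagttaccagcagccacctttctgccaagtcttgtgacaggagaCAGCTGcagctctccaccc
Cox7a1: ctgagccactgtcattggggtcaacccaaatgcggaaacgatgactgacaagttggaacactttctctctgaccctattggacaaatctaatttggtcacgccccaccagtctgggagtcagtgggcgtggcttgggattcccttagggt
Cox8a: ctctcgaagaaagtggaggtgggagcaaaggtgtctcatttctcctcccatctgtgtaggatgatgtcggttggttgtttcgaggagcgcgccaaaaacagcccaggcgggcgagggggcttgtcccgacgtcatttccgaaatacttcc
Cox7a2: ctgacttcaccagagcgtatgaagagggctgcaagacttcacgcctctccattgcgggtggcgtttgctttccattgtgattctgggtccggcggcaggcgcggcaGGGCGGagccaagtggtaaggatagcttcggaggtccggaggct
Sdha: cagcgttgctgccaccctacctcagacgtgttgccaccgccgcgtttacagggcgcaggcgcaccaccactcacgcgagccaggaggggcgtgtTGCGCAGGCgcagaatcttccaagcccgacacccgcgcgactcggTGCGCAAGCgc
Sdhb: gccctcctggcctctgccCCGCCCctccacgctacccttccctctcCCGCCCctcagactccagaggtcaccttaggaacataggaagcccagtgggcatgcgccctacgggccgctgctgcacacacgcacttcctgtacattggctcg
Sdhd: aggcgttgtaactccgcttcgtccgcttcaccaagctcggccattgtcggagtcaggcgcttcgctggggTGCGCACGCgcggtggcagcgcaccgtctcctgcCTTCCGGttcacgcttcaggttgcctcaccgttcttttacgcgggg

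These stretches lie just upstream of the annotated start, at chr7:140900447-140900596 (minus strand) for Cox8b, chr7:30184021-30184170 (plus strand) for Cox7a1, chr19:7217617-7217766 (minus strand) for Cox8a, chr9:79759854-79760003 (minus strand) for Cox7a2, chr13:74350241-74350390 (minus strand) for Sdha, chr4:140961121-140961270 (plus strand) for Sdhb and chr9:50603850-50603999 (minus strand) for Sdhd.

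Counted from the start, Sdha has NRF1 matches at -56 and -11, Sdhd has an NRF1 match at -80 and an ETS match at -46, and Sdhb has SP1 matches at -132 and -104. The Cox8b stretch holds 1 E-box, at -19, and Cox7a2 1 SP1 match, at -44. No letters of these motifs occur in the stretches of Cox7a1 and Cox8a. The full 300-base windows hold further matches. Cox8a has 2 ETS matches there, Cox8b 2 E-boxes, Sdhb 3 SP1 matches and 1 ETS match, and Sdhd also 1 ERR and 1 SP1 match. Cox7a1 has no match in its full window. Over the whole 300-base windows, NRF1 letters were present in 16.7% of the members' promoters and 4.16% of all 32851 promoters in the table. The corresponding shares were 23.1% and 8.86% for ETS, 12.8% and 2.75% for YY1, 2.56% and 0.423% for ERR, 43.6% and 35.7% for SP1, and 7.69% and 16.3% for the E-box. A match describes letters and is no evidence of binding.

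**Figure D1:**
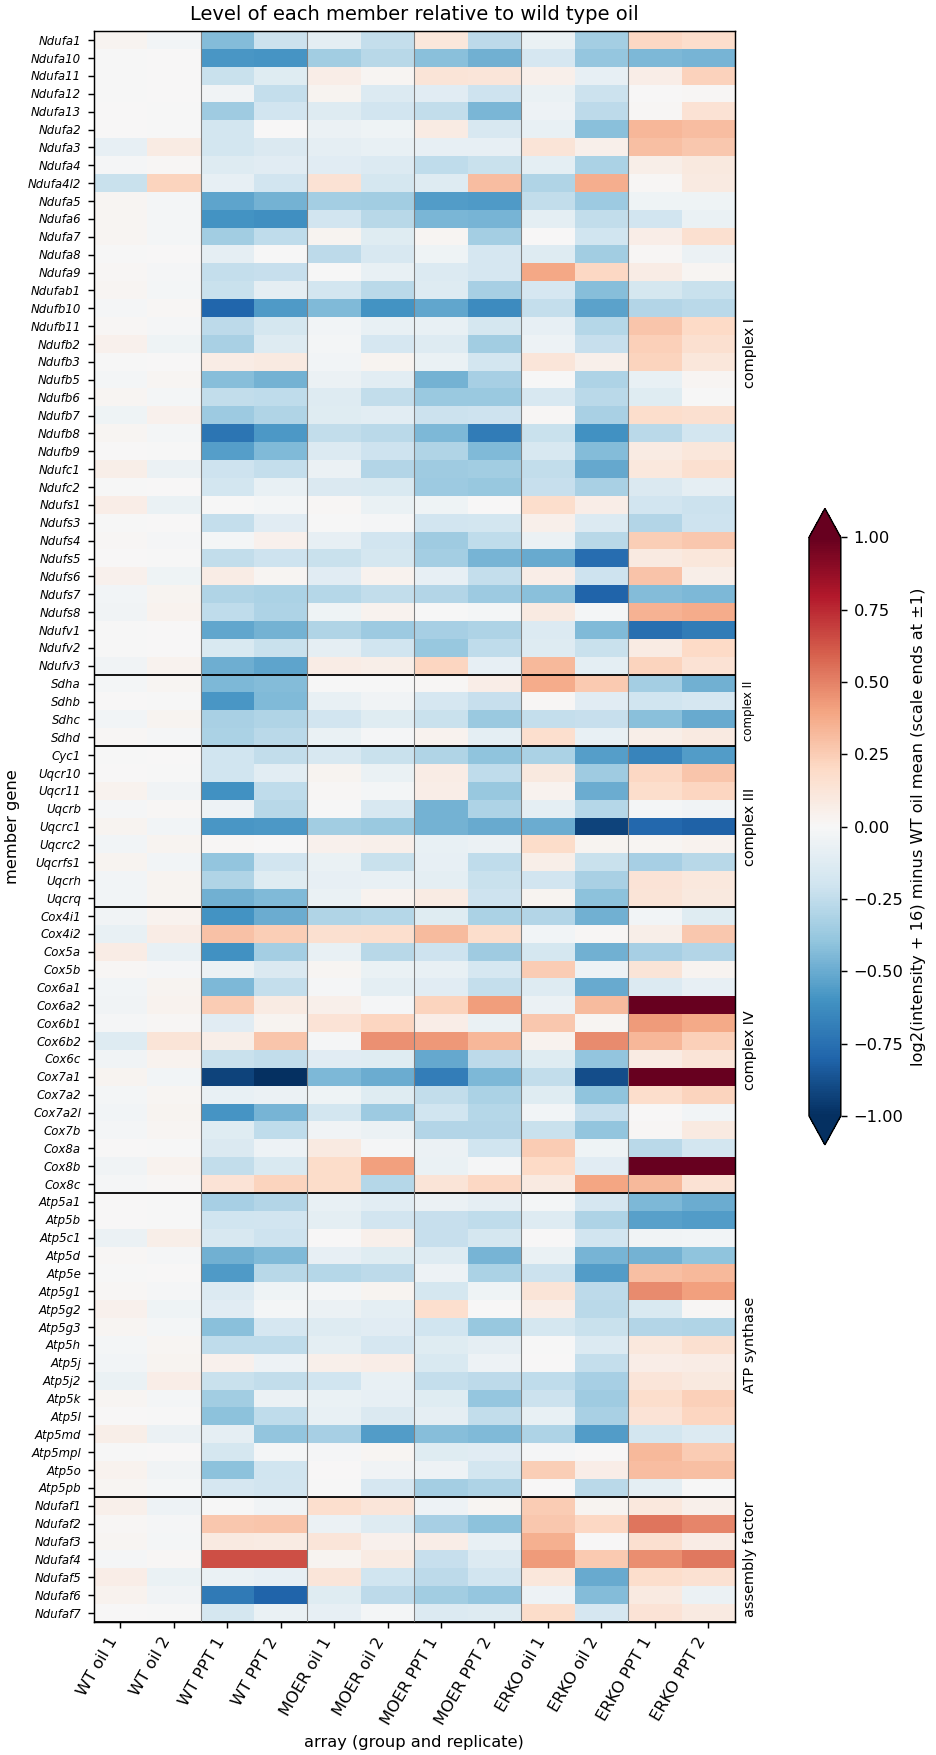
Level of each of the 89 tested members in the 12 arrays, as log2(intensity + 16) minus the mean of the WT oil arrays, with genes in rows by complex and arrays in columns. Blue marks lower and red higher values, and the scale ends at ±1. Most rows are blue in WT PPT, and the rows of Cox6a2, Cox7a1 and Cox8b are dark red in both ERKO PPT arrays.

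In WT liver more members fell with PPT than rose, among them all 4 subunits of complex II. Of 89 members 28 fell and 2 rose, or 31.5% and 2.25% of them, while 17.9% of all genes tested fell and 15.2% rose (limma, adjusted p under 0.05 over all probe sets). The median member changed by -0.22 on the log2(intensity + 16) scale, on which all changes here are given, and the median of all genes by 0.005. Both PPT arrays lay below both oil arrays for 70 members, compared with 37.1% of all genes, and above them for 7, compared with 36.4%. The count of 30 calls fell to 16 without WT oil replicate 1, WT oil replicate 2 or WT PPT replicate 1, and to 19 without WT PPT replicate 2, and 14 of the 28 decreases and 1 of the 2 increases were called in all 12 fits that leave out 1 array. In whole tissue, fewer cells of a type and less RNA per cell cannot be told apart.

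In complex I 11 of 36 subunits fell and none rose, with a median change of -0.23. Ndufb10, an accessory subunit of the membrane arm, gave 581 and 588 in oil and 331 and 389 after PPT, and fell by 0.68 ± 0.12 (SE, n = 2 arrays per group, adjusted p = 0.00132). Its groups did not overlap. Ndufb8, also of the membrane arm, went from 1080 and 1053 to 637 and 710, and fell by 0.65 ± 0.13 (adjusted p = 0.00324). Ndufv1, which holds the NADH site and the flavin, stood at 1287 and 1289 under oil and at 891 and 923 after PPT, and fell by 0.50 ± 0.10 (adjusted p = 0.00405). Ndufs1, the large iron-sulphur subunit, gave 1848 and 1680 before and 1761 and 1736 after, with overlapping groups and no call. Ndufs7, which carries the last iron-sulphur cluster, gave 1595 and 1656 before and 1317 and 1299 after without a call. The remaining decreases, in Ndufa5, Ndufa6, Ndufa10, Ndufb5, Ndufb7, Ndufb9, Ndufs8 and Ndufv3, ranged from 0.28 to 0.60. The calls of Ndufa5, Ndufa6, Ndufa10, Ndufb8, Ndufb9, Ndufb10 and Ndufv1 were kept in all 12 fits that leave out 1 array.

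Complex II, succinate dehydrogenase, which also serves the citric acid cycle, fell in each of its 4 subunits, with a median of -0.38. Sdha, the flavoprotein with the succinate site, gave 2975 and 3046 under oil and 2202 and 2225 under PPT, and fell by 0.44 ± 0.087 (adjusted p = 0.00276). Sdhb, the iron-sulphur subunit, gave 2473 and 2472 under oil and 1645 and 1816 under PPT, and fell by 0.51 ± 0.089 (adjusted p = 0.00122). Sdhc and Sdhd anchor the enzyme in the membrane. Sdhc went from 2195 and 2275 to 1785 and 1807, and fell by 0.31 ± 0.088 (adjusted p = 0.0196), and Sdhd went from 2588 and 2560 to 2068 and 2137, and fell by 0.29 ± 0.10 (adjusted p = 0.0484). Both PPT arrays lay under both oil arrays for all 4 genes. The calls of Sdha and Sdhb held in all 12 fits that leave out 1 array, and those of Sdhc and Sdhd did not.

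**Figure D2:**
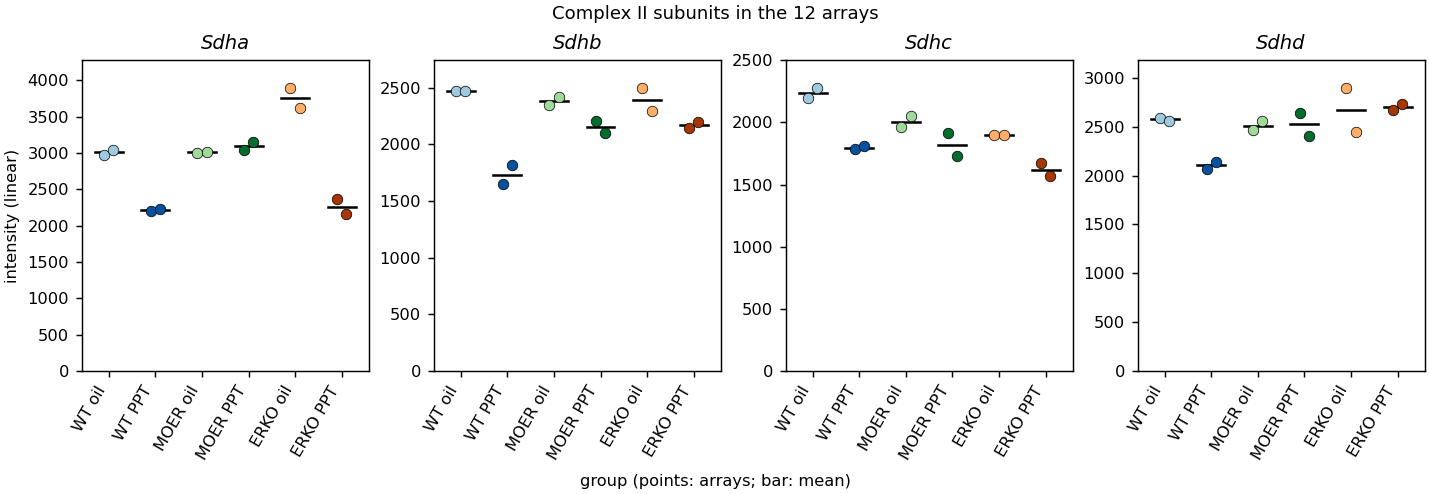
Intensity (linear, from 0) of Sdha, Sdhb, Sdhc and Sdhd in the 12 arrays by group, with a point per array and a bar at the mean of 2 arrays. The WT PPT points lie below the WT oil points in each panel, and Sdha is also low in ERKO PPT, at 2369 and 2154.

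In complex III 2 of 9 members fell and none rose, with a median of -0.22. The 22.2% that fell lie near the 17.9% of all genes. Uqcrc1, a core subunit that faces the matrix, stood at 1611 and 1546 in oil and at 1049 and 1057 under PPT, and fell by 0.58 ± 0.12 (adjusted p = 0.00449). Uqcrq, a small subunit, gave 2325 and 2406 in oil and 1693 and 1734 under PPT, and fell by 0.46 ± 0.14 (adjusted p = 0.0282). Cyc1, cytochrome c1, went from 1921 and 1940 to 1682 and 1621 and was not called, and Uqcrfs1, the Rieske protein, from 1712 and 1644 to 1274 and 1465 without a call. The partner core subunit Uqcrc2 gave 5187 and 5361 before and 5303 and 5290 after, with overlapping groups.

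Complex IV had 4 decreases among 16 subunits tested and no increase, with a median of -0.14. Its share of decreases, 25.0%, is likewise not far from that of all genes. Cox4i1, a subunit of the core assembly and the usual isoform in liver, went from 3371 and 3521 to 2277 and 2432, and fell by 0.55 ± 0.10 (adjusted p = 0.00194). Cox5a, its partner, went from 1671 and 1514 to 1041 and 1255, and fell by 0.47 ± 0.13 (adjusted p = 0.0209). Cox7a2l, known for joining complexes III and IV into supercomplexes, was at 1715 and 1774 in oil and 1153 and 1260 under PPT, and fell by 0.53 ± 0.10 (adjusted p = 0.00279). The largest decrease of any member was that of Cox7a1, from 316 and 305 to 155 and 106, and it fell by 1.17 ± 0.20 (adjusted p = 0.0011). None of the 12 skeletal muscle markers was called lower, and 2 of 12 rose. Their summed intensity was 578 to 586 in WT oil and 669 to 735 in WT PPT, and none was at 0. In WT oil 7 of the 12 were dim, with both arrays under the percentile of the filter, and could hardly show a fall. Brown adipocytes also use Cox7a1. Of their 4 markers, Ucp1 went from 17.7 and 17.1 to 24.7 and 18.4. Cidea went from 24.4 and 22.9 to 36.7 and 23.8. Both were too dim to test and could hardly show a fall. The other 2 fell. Elovl3, which liver also expresses, went from 137 and 107 to 1.05 and 0.18. Ppargc1a, counted below as a regulator of mitochondrial gene expression, went from 165 and 186 to 52.7 and 53.8. These PPT values were dim, so the fitted changes of -3.05 and -1.46 are no measured sizes. The part of either cell type in the fall of Cox7a1 was not tested.

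ATP synthase had 6 decreases among 17 subunits, no increase and a median of -0.23. Atp5d, the delta subunit of the rotor stalk, went from 1935 and 1906 to 1370 and 1411, and fell by 0.46 ± 0.14 (adjusted p = 0.0278). Atp5e, the epsilon subunit beside it, went from 2152 and 2154 to 1448 and 1777, and fell by 0.42 ± 0.14 (adjusted p = 0.0407). Atp5a1, the alpha subunit of the catalytic head, went from 5111 and 5076 to 4048 and 4151, and fell by 0.31 ± 0.085 (adjusted p = 0.0173). The catalytic beta subunit Atp5b gave 5657 and 5620 in oil and 4904 and 4926 under PPT and was not called. Atp5h, Atp5l and Atp5o, which belong to the stator or the membrane part, also fell, by 0.26 to 0.33. None of the 6 calls was kept in all 12 fits that leave out 1 array.

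The complex I assembly factors, which are not part of the finished enzyme, moved in both directions, with 2 of 7 higher and 1 lower. Ndufaf4 gave 651 and 659 in oil and 1034 and 1033 under PPT, an increase of 0.65 ± 0.089 (adjusted p = 0.00025). Ndufaf6 went from 252 and 240 to 144 and 135, and fell by 0.75 ± 0.13 (adjusted p = 0.000917). Ndufaf2 rose from 416 and 407 to 500 and 501, by 0.27 ± 0.083 (adjusted p = 0.0279). Alongside these changes, 2 of 7 hepatocyte markers fell, with a summed intensity of 81731 to 83112 in oil and 70718 to 74537 under PPT, and 3 of 7 macrophage markers rose and 1 fell, with a sum of 6943 to 7064 in oil and 8452 to 8521 under PPT. The part of either cell type in the decreases was not tested.

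**Figure D3:**
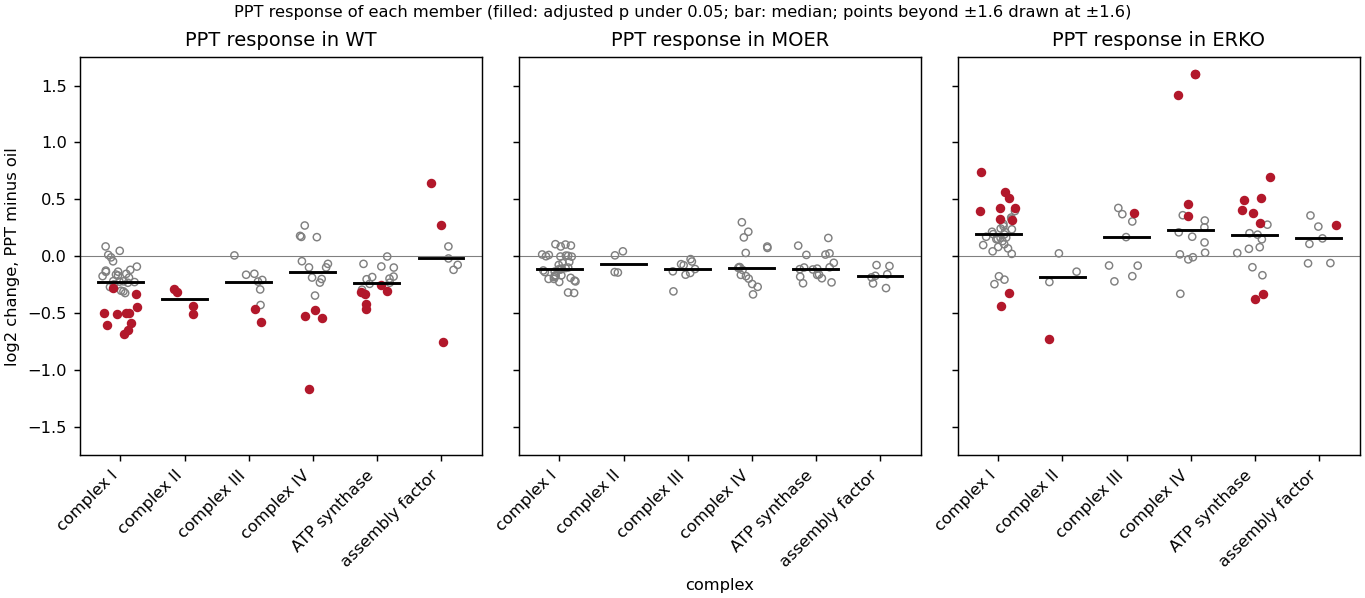
Change with PPT (log2, PPT minus oil) of each tested member in WT, MOER and ERKO, by complex. Filled points have an adjusted p under 0.05, bars are medians, and points beyond ±1.6 are drawn at ±1.6 (Cox7a1 and Cox8b in ERKO, which overlap). Complex II has 4 filled points below 0 in WT, MOER has no filled point, and most filled points in ERKO lie above 0.

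In MOER liver no member was called. The counts were 0 of 89 in either direction, while 4.92% of all genes were called (limma, 2.52% higher and 2.4% lower). An unadjusted p under 0.05 was reached by 14 members, and other settings gave 0 to 3 calls. That unadjusted threshold was passed by 46 members in WT and 40 in ERKO. Of all 13987 genes, 2197 passed it in MOER, 5897 in WT and 4235 in ERKO. The adjusted threshold is stricter where fewer genes change, so the numbers of calls are not compared at 1 threshold. The median member in MOER changed by -0.11, against 0.002 for all genes, and both PPT arrays lay below both oil arrays for 51 members, compared with 24.8% of all genes, and above for 5, compared with 25.0%. Changes ranged from -0.34 to 0.30. The lowest p was that of Ndufaf2, which gave 395 and 375 in oil and 323 and 305 under PPT, a log2 difference of -0.28 ± 0.083 with an adjusted p of 0.0985. Sdha gave 3005 and 3006 in oil and 3036 and 3156 under PPT, and Sdhb 2346 and 2415 in oil and 2204 and 2103 under PPT. Cox7a1, the lowest in WT PPT, gave 223 and 216 in oil and 187 and 223 under PPT, with overlapping groups. In this comparison 10 of 11 acinar markers fell, with a summed intensity of 36603 to 46737 in MOER oil and 688 to 724 in MOER PPT and none at 0. In MOER PPT 7 of the 11 were dim. Cpb1, Cpa1, Rnase1, Cel and Clps were tested through the MOER oil arrays where they are bright. Any call of theirs, here or in the comparisons below, is no independent result. The part of acinar RNA in the members' values was not tested.

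In ERKO liver more members rose with PPT than fell, among them 8 of complex I, 6 of ATP synthase and the muscle isoforms of complex IV, while Sdha, Ndufv1, Ndufs1, Atp5a1 and Atp5b fell. Of 89 members 21 rose and 5 fell, or 23.6% and 5.62%, while 7.44% of all genes rose and 9.48% fell. The median member changed by 0.17, against 0.002 for all genes. Both PPT arrays lay above both oil arrays for 49 members, compared with 23.2% of all genes, and below for 14, compared with 25.2%. Quantile normalization gave 21 higher and 9 lower. Without ERKO oil replicate 1 there were 43 increases and 5 decreases, while 16.9% of all genes rose and 9.29% fell. Without ERKO oil replicate 2 there were 15 and 11, while 8.47% of all genes rose and 18.7% fell. With either oil array alone, 15 increases and the 5 decreases were called. Leaving out ERKO PPT replicate 1 left 6 increases and 1 decrease, and leaving out replicate 2 left 4 and 1. Without the muscle isoforms Cox6a2, Cox7a1 and Cox8b, an alternative chosen after the data were seen, 18 of 86 rose and 5 fell.

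Among the 5 decreases, Sdha gave 3888 and 3615 in oil and 2369 and 2154 under PPT, and fell by 0.73 ± 0.087 (adjusted p = 0.000373). Its call was kept in all 12 fits that leave out 1 array. Ndufv1 went from 1172 and 943 to 757 and 788, and fell by 0.44 ± 0.10 (adjusted p = 0.0174). Ndufs1 went from 1995 and 1850 to 1539 and 1516, and fell by 0.33 ± 0.088 (adjusted p = 0.0283). Of ATP synthase, Atp5a1 went from 5034 and 4528 to 3720 and 3608, and fell by 0.38 ± 0.085 (adjusted p = 0.0131), and Atp5b went from 5162 and 4559 to 3862 and 3824, and fell by 0.33 ± 0.089 (adjusted p = 0.0269). The oil and PPT groups did not overlap for these 5 genes. The other subunits of complex II were not called: Sdhb gave 2493 and 2290 before and 2147 and 2199 after, Sdhc 1896 and 1901 before and 1672 and 1569 after, and Sdhd 2892 and 2446 before and 2674 and 2736 after.

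Ndufs5, a small subunit of complex I on the side of the intermembrane space, gave 921 and 767 in oil and 1397 and 1422 under PPT, an increase of 0.74 ± 0.10 (adjusted p = 0.000923) that was called in all 12 fits leaving out 1 array. Another probe set on the array matches Ndufs5 together with its pseudogene, and signal of near-identical copies may mix. Ndufa2, an accessory subunit of the matrix arm, rose from 2254 and 1766 to 2985 and 2945, by 0.57 ± 0.13 (adjusted p = 0.0135). Complex I had 8 increases of 36, the others being Ndufb9, Ndufb11, Ndufc1, Ndufs4, Ndufs8 and Ndufv2, at 0.31 to 0.52. In complex III Uqcrh, the hinge protein that docks cytochrome c, was the 1 member of 9 that rose, a share near the 7.44% of all genes, from 4447 and 4049 to 5593 and 5464 (0.38 ± 0.097, adjusted p = 0.0225). ATP synthase had 6 increases of 17. Atp5e rose from 1856 and 1453 to 2663 and 2693, by 0.70 ± 0.14 (adjusted p = 0.00712). Atp5g1, Atp5g2 and Atp5g3 encode the same mature c-ring protein, and of these Atp5g1 rose from 1749 and 1328 to 2229 and 2123 (0.51 ± 0.12, adjusted p = 0.0177), while Atp5g2 differed by 0.03 and Atp5g3 by -0.10 without a call. The value of Atp5g2 was 0.20 without ERKO oil replicate 1 and -0.14 without replicate 2, and that of Sdhd 0.14 and -0.10. Atp5j2, Atp5k, Atp5l and Atp5mpl rose by 0.30 to 0.49. The assembly factor Ndufaf2 rose by 0.27 ± 0.083 (adjusted p = 0.0462).

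**Figure D4:**
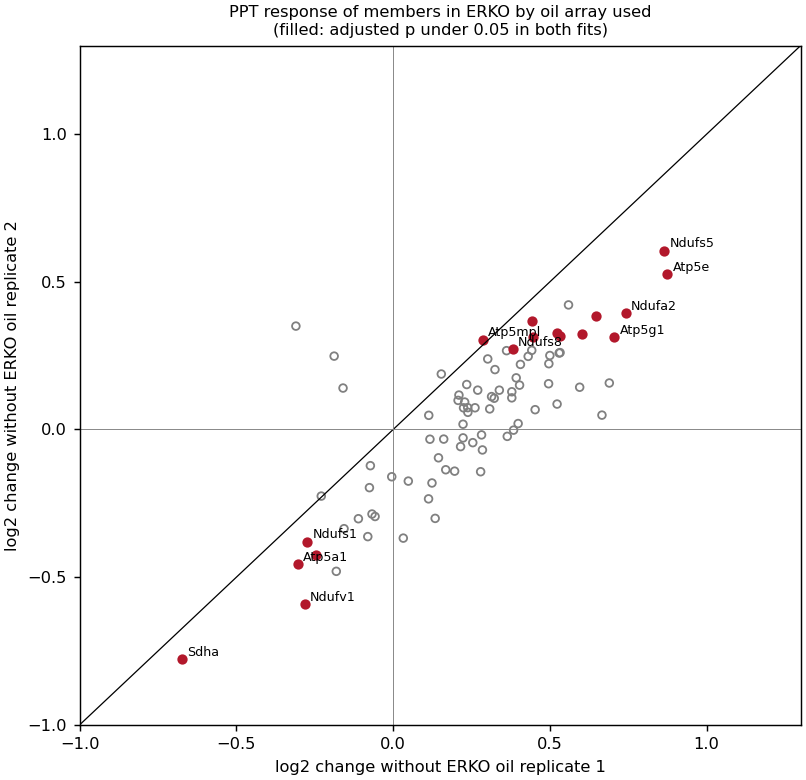
Change with PPT in ERKO (log2) of each member without ERKO oil replicate 1 (horizontal) and without replicate 2 (vertical), with the line of equal values. Filled points were called in both fits, some are labelled, and Cox6a2, Cox7a1 and Cox8b lie beyond the axes. Most points lie below the line, and Sdha is lowest in both fits, at -0.67 and -0.78.

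Complex IV in ERKO had 5 increases of 16 and no decrease, of which 3 were the striated muscle isoforms. Cox8b gave 51.3 and 38.2 in oil, both under the 40th percentile of their array, and 2196 and 2068 under PPT, at least 38.1-fold higher. It was bright enough to be tested through the ERKO PPT arrays, since of the others MOER oil replicate 2 alone, at 62.0, lay over its percentile, so its call is no independent result. Cox7a1 rose from 260 and 160 to 1151 and 1107, by 2.38 ± 0.20 (adjusted p = 2.79e-05). Cox6a2 rose from 45.1 and 63.3 to 174 and 166, by 1.42 ± 0.13 (adjusted p = 5.15e-05). The calls of Cox7a1 and Cox6a2 were kept in all 12 fits that leave out 1 array. For Cox8b those fits are no support, since all of them used the same filter. The counterparts of the muscle isoforms moved less: Cox7a2 rose from 3115 and 2562 to 3836 and 3960 (0.46 ± 0.10, adjusted p = 0.012), whereas Cox6a1 gave 2833 and 2175 before and 2817 and 2929 after, and Cox8a 2962 and 2405 before and 2052 and 2188 after, neither called. Cox7b was the remaining increase, at 0.36 ± 0.093 (adjusted p = 0.0248). The other tissue-restricted isoforms had no call in any of the 3 responses and stayed dim or low in all 12 arrays: Cox4i2, a lung form, lay between 110 and 150, Cox6b2, a testis form, between 41.2 and 70.9, Cox8c, also a testis form, between 38.8 and 71.5, and Ndufa4l2 between 48.0 and 85.2. Ndufa4, now placed in complex IV, gave 8085 and 8229 in WT oil and 7465 and 7537 in WT PPT, and 7627 and 6557 in ERKO oil and 8489 and 8736 in ERKO PPT, without a call in either response.

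**Figure D5:**
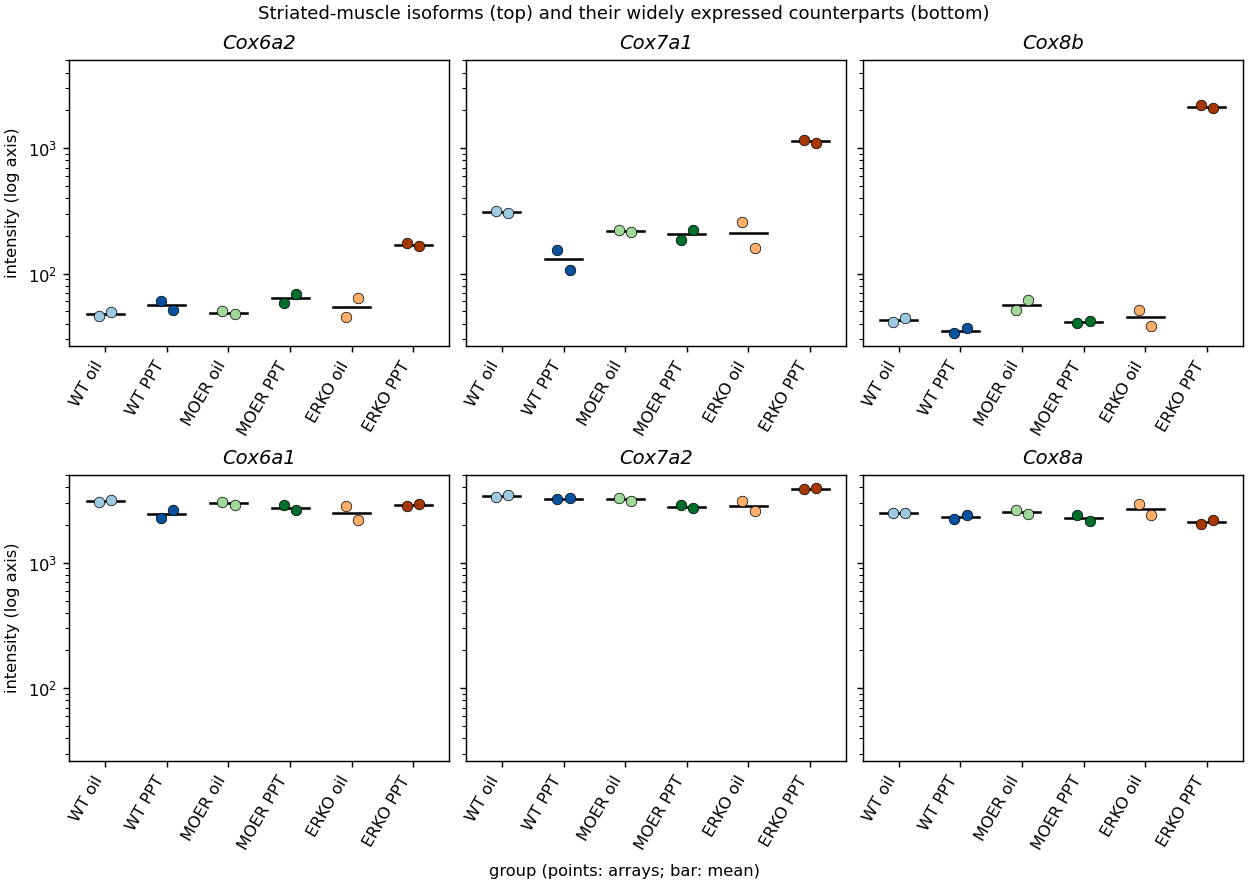
Intensity (log axis) of the muscle isoforms Cox6a2, Cox7a1 and Cox8b and of the widely expressed Cox6a1, Cox7a2 and Cox8a in the 12 arrays by group, with a point per array and a bar at the mean of 2 arrays. Each muscle isoform is highest in both ERKO PPT arrays, and Cox7a1 is lowest in WT PPT, at 155 and 106.

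Markers of skeletal muscle moved with these isoforms in the ERKO arrays. All 12 rose, none was at 0, and their summed intensity was 605 to 653 in ERKO oil and 17959 to 19039 in ERKO PPT. In ERKO oil 6 of the 12 were dim: Mylpf, Myh4, Myh1, Actn3, Atp2a1 and Myl1. These 6 were tested through the ERKO PPT arrays where they are bright, so their calls are no independent result. Acta1, skeletal actin, went from 81.8 and 69.3 to 1780 and 1847, and Tnnc2, fast troponin C, from 65.0 and 71.2 to 6500 and 5499. Of the heart or slow muscle markers Myl2 rose from 43.1 and 43.8 to 704 and 637, and Myh6 and Myh7 stayed between 12.4 and 53.9 in all 12 arrays. Myl2 too was tested through the ERKO PPT arrays. Brown adipocytes also use Cox7a1 and Cox8b. Of their 4 markers Ucp1 lay between 15.0 and 27.4 and Cidea between 21.8 and 36.7 in all 12 arrays, under the 40th percentile, and Ppargc1a was not called in ERKO. Elovl3, an elongase of fatty acids that liver also expresses, rose from 205 and 120 in ERKO oil to 1690 and 1597 in ERKO PPT, and the sum of the 4 was 326 to 426 in oil and 1778 to 1878 under PPT. Of 2 adipocyte markers tested, Adipoq rose from 31.0 and 17.9, both dim, to 64.9 and 84.5. It was also tested through the ERKO PPT arrays. The adipocyte sum was 107 to 132 over 3 markers in oil and 155 to 186 under PPT. No marker of either list was at 0. The part of muscle or adipocyte RNA in the members' changes was not tested. Macrophage markers fell for 5 of 7 in the same comparison (2 without ERKO oil replicate 1 and 6 without replicate 2), with a sum of 7385 to 8193 in oil and 6484 to 6581 under PPT.

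The WT and ERKO responses share no array. Of the 28 members that fell in WT, 5 rose in ERKO (17.9% of the 28, and 23.8% of the 21 ERKO increases): Atp5e, Atp5l, Cox7a1, Ndufb9 and Ndufs8. That share is below the 23.6% of all 89 members that rose in ERKO. Of all genes that fell in WT, 4.92% rose and 25.5% fell in ERKO. The 3 genes that fell in both were Atp5a1, Ndufv1 and Sdha, which are 10.7% of the WT decreases and 3 of the 5 ERKO decreases, where 5.62% of all members fell in ERKO. Ndufaf2 rose in both. Ndufaf4, which rose in WT, gave 883 and 787 in ERKO oil and 912 and 950 after PPT without a call.

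The difference between responses was tested directly, in contrasts that share arrays with each other and with the responses above. For WT minus ERKO, 39 of 89 members had the lower response in WT (43.8%, against 12.2% of all genes) and 1 the higher (11.4% of all genes), with a median of -0.41 against -0.018. By complex, 19 of 36 in complex I, 0 of 4 in complex II, 3 of 9 in complex III, 9 of 16 in complex IV and 7 of 17 in ATP synthase were lower. The complex IV count includes Cox8b, which was tested through the ERKO PPT arrays where it is bright. The count of 40 was 61 without ERKO oil replicate 1, 33 without replicate 2, 22 without WT oil replicate 1, 20 without WT oil replicate 2, 22 without WT PPT replicate 1, 25 without ERKO PPT replicate 1 and 21 without ERKO PPT replicate 2. Apart from the muscle isoforms, large differences were those of Atp5e (-1.12 ± 0.20, adjusted p = 0.00207), Ndufs5 (-0.96 ± 0.14, adjusted p = 0.00072), Ndufb9 (-0.89 ± 0.15, adjusted p = 0.00163) and Cox4i1 (-0.86 ± 0.14, adjusted p = 0.00161). Cox4i1 gave 2805 and 2464 in ERKO oil and 3385 and 3160 in ERKO PPT. The 1 higher response was that of Ndufaf4, at 0.49 ± 0.13 (adjusted p = 0.018). All 12 skeletal muscle markers also had the lower response in WT, with a median of -3.86, and their part was not tested. The 6 of them that were dim in ERKO oil were tested through the ERKO PPT arrays.

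WT differed from MOER for 10 members. The response in WT was lower for 8 of 89 (8.99%, against 12.7% of all genes) and higher for 2 (11.2% of all genes), so neither share exceeded that of all genes. The median was -0.13 against -0.006. Ndufaf4 had a WT response higher by 0.89 ± 0.13 (adjusted p = 0.000499), with 669 and 693 in MOER oil and 555 and 594 in MOER PPT, and Ndufaf2 by 0.55 ± 0.12 (adjusted p = 0.00599). These were called in every fit that leaves out 1 array. The lower ones were Cox7a1, Ndufb10, Cox4i1, Ndufaf6, Cox7a2l, Ndufv1, Sdha and Ndufa10, between -1.08 and -0.45, and none of the 8 was kept in all of those fits. The count of 10 was 3 without WT oil replicate 1, WT oil replicate 2, WT PPT replicate 1 or MOER oil replicate 2, 5 without WT PPT replicate 2, MOER PPT replicate 1 or MOER PPT replicate 2, 6 without MOER oil replicate 1, and 19 without either ERKO oil array. In this contrast 10 of 11 acinar markers had the higher response in WT, with a median of 3.29, and their part was not tested.

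For MOER minus ERKO, 17 of 89 had the lower response in MOER (19.1%, against 5.08% of all genes) and 1 the higher (6.53% of all genes), with a median of -0.30 against -0.002. Sdha was the higher one, at 0.77 ± 0.12 (adjusted p = 0.00302). The 17 include Cox8b, which was tested through the ERKO PPT arrays where it is bright. Besides the muscle isoforms, the lower responses included Ndufs5 (-0.94 ± 0.14, adjusted p = 0.00217), Ndufc1 (-0.69 ± 0.16, adjusted p = 0.021) and Cox7a2 (-0.66 ± 0.14, adjusted p = 0.0156). Quantile normalization gave 5 higher and 19 lower. The count of 18 was 48 without ERKO oil replicate 1 (2 higher and 46 lower) and 22 without replicate 2 (4 higher and 18 lower), and lay between 6 and 11 without WT oil replicate 1 or 2, ERKO PPT replicate 1 or 2, MOER oil replicate 1 or 2, or MOER PPT replicate 1 or 2. All 11 acinar markers (median -2.72) and all 12 skeletal muscle markers (median -4.22) had the lower response in MOER as well, and their part was not tested. Some markers of each list were tested only through the arrays where they are bright, as given above.

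Under oil few members differed between the genotypes. ERKO was below WT for 4 of 89 members (4.49%, against 2.89% of all genes) and above for none (2.35% of all genes), with a median of -0.16 against -0.05. Uqcrc1 gave 1611 and 1546 in WT and 1116 and 822 in ERKO, and was lower by -0.71 ± 0.12 (adjusted p = 0.0103). Ndufs5 gave 1312 and 1311 in WT and 921 and 767 in ERKO (-0.63 ± 0.10, adjusted p = 0.00613), Ndufs7 1595 and 1656 in WT and 1213 and 924 in ERKO (-0.61 ± 0.12, adjusted p = 0.016), and Cyc1 1921 and 1940 in WT and 1550 and 1313 in ERKO (-0.43 ± 0.099, adjusted p = 0.0364). The groups did not overlap for these 4 genes. No call was kept in all fits that leave out 1 array: there were 0 without either WT oil array, 40 without ERKO oil replicate 1, 38 of them lower, and 5 without replicate 2, 3 of them lower. Quantile normalization gave 4 higher and 8 lower.

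MOER was below WT under oil for 2 of 89 members (2.25%, against 3.64% of all genes) and above for none (2.14% of all genes), with a median of -0.08 against -0.03. Ndufb10 gave 425 and 380 in MOER (-0.52 ± 0.12, adjusted p = 0.0312), and Ndufa5 gave 1388 and 1357 in WT and 1079 and 1077 in MOER (-0.34 ± 0.083, adjusted p = 0.038). The count was 9 without either ERKO oil array, 1 without either WT PPT array and 0 without any other single array. MOER and ERKO under oil differed for 0 of 89 members, against 2.16% of all genes (limma, with 9 at an unadjusted p under 0.05), with 9 calls without ERKO oil replicate 1 and 4 without replicate 2. All 11 acinar markers were higher in MOER oil than in WT oil, where they summed to 489 to 600, and their part was not tested.

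Genes that work beside the chain were counted from lists chosen with earlier results known, and their shares stand against 15.2% of all genes higher and 17.9% lower in WT, 2.52% and 2.4% in MOER, and 7.44% and 9.48% in ERKO. In the citric acid cycle, which feeds the chain with NADH and succinate, 6 of 12 fell in WT, 1 in MOER and 5 in ERKO, and none rose, with medians of -0.26, -0.12 and -0.24. The ERKO decreases were 3 without ERKO oil replicate 1 and 6 without replicate 2. Suclg2, a subunit of succinyl-CoA ligase, had the largest decrease in WT, from 3118 ± 58.4 to 1876 ± 65.7 (mean intensity ± SD, n = 2), and also in ERKO, from 3041 ± 407 to 1979 ± 3.58. Of mitochondrial ribosomal proteins, which translate the subunits encoded in mitochondrial DNA, 11 of 77 rose and 7 fell in WT, 0 rose and 4 fell in MOER, and 26 rose and 1 fell in ERKO. Their increases in WT, 14.3%, were near the share of all genes, and in ERKO they were 39 without ERKO oil replicate 1 and 13 without replicate 2. Genes with symbols of cytosolic ribosomal proteins rose for 13 of 63 in WT, for none in MOER, and for 33 of 63 in ERKO. The symbols also take in related genes such as Rps23rg1, Rpl7l1 and Rpl3l, and the 1 decrease in WT was that of Rps23rg1. ERKO had no decrease and a median of 0.35, with more increases without ERKO oil replicate 1 and fewer without replicate 2. Of the transcripts of mitochondrial DNA, 2 were measured under 1 symbol and neither was called in the 3 responses, though both were higher in ERKO PPT without ERKO oil replicate 1.

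Among regulators of mitochondrial gene expression, 3 of 17 rose and 4 fell in WT, 0 changed in MOER, and 1 fell in ERKO, shares that in WT lie near those of all genes and in ERKO below them. Without ERKO oil replicate 1 there were 1 increase and 1 decrease in ERKO, and without replicate 2 none and 3. Ppargc1a, a coactivator that drives respiratory genes, gave 165 and 186 in WT oil and 52.7 and 53.8 in WT PPT, and fell (limma, adjusted p = 2.06e-06). Both WT PPT arrays lay under their 40th percentile, so the fitted change of -1.46 ± 0.11 is no measured size. In MOER Ppargc1a gave 161 and 142 before and 157 and 181 after, and in ERKO 179 and 161 before and 141 and 141 after. Tfam, which packages and transcribes mitochondrial DNA, rose in WT from 590 ± 27.9 to 964 ± 50.01, and Twnk, the helicase of mitochondrial DNA, from 278 ± 13.6 to 1563 ± 49.3. Of coenzyme Q and cytochrome c genes, 4 of 13 rose and 3 fell in WT, 1 rose and 2 fell in MOER, and 1 rose and 1 fell in ERKO, where the shares are near those of all genes, with 3 and 1 without ERKO oil replicate 1 and 1 and 2 without replicate 2. Coq10b, a coenzyme Q binding protein, rose in WT from 333 ± 60.4 to 1422 ± 5.10 and in MOER from 281 ± 35.7 to 438 ± 68.7, and fell in ERKO from 687 ± 24.9 to 382 ± 23.9. Hccs, which attaches haem to cytochrome c, rose in WT from 364 ± 11.5 to 572 ± 6.802 and fell in MOER from 512 ± 21.7 to 311 ± 17.5. Cycs, cytochrome c itself, rose in ERKO from 3463 ± 380 to 4960 ± 16.2.

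Of mitochondrial carriers and the ATPase inhibitor, 1 of 10 rose and 4 fell in WT, none changed in MOER, and 2 rose and 2 fell in ERKO, where 1 rose and 3 fell without ERKO oil replicate 2. Slc25a4, the muscle isoform of the ADP/ATP carrier, rose from 302 ± 14.2 to 532 ± 1.65 in WT and from 296 ± 42.3 to 1764 ± 140 in ERKO. The isoform Slc25a5 fell in ERKO from 4419 ± 423 to 3426 ± 13.1. Slc25a10, the dicarboxylate carrier that brings succinate and malate across the membrane, fell in WT from 918 ± 19.7 to 301 ± 2.27 and in ERKO from 789 ± 113 to 499 ± 16.7. Other assembly factors of the chain rose for 3 of 35 and fell for 4 in WT, had no call in MOER, and rose for 9 and fell for 2 in ERKO. The WT shares, 8.57% and 11.4%, lie below those of all genes, and in ERKO 15 rose and none fell without ERKO oil replicate 1, and 2 rose and 5 fell without replicate 2. Tmem70, an assembly factor of ATP synthase, rose in WT from 902 ± 28.6 to 1239 ± 1.36, and Tmem126b, an assembly factor of complex I, fell there from 978 ± 21.5 to 706 ± 32.3.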

How the data were processed

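The authors deposited 1 table of linear hybridisation intensity per probe set and array (28815 probe sets, 12 arrays), per the file headers. The steps of probe summary and array normalisation are not given in the sources used here. Array medians lay between 77.5 and 85.26, and the values were used as deposited. The 75th percentile of ERKO oil replicate 2 was 238.1, against 247.8 to 273.5 in the other arrays. Median centring and quantile normalization were among the alternatives. Per the labels' protocols the authors used Cyber-T at 99.99% confidence with at least a 2-fold change.

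The analysis scale was log2(intensity + 16). A probe set was tested, as 19119 were, if at least 2 arrays placed it over their 40th percentile (53.58 to 60.98). Of all probe sets, 21780 carry 1 gene symbol, 1605 carry several and 5430 carry none. Each gene took the 1-symbol probe set with the highest mean, giving 13987 genes tested. Of 17 members with several probe sets, 4 were called in some of them only and none in opposite directions. With limma 3.58.1 in R 4.3.3, 6 group means were fitted to the 12 arrays together (lmFit, then eBayes with no trend), leaving 6 residual degrees of freedom, 10.47 after moderation. Tests were two-sided with Benjamini-Hochberg adjustment over the 19119 probe sets, and a gene was called at an adjusted p under 0.05. Where both arrays of a group lay under the 40th percentile, a called fold is given as at least that of the brighter group over this percentile.

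The members and lists were chosen with earlier results of these data known. Members named for a comparison were, per complex, the 2 called members of largest change in each direction, the catalytic or core subunits, the isoform pairs and the assembly factors of largest change, and from other lists at most 2 called genes in each direction. Others were named after their values were seen, as the remainder of a small count. On data simulated for the WT response over 19119 probe sets, 36 of 100 changes of 0.5 and 78 of 100 changes of 1 (log2) were called, with 8 false calls. No other probe set was changed, whereas 4631 of 13987 genes were called in WT. The adjusted threshold was therefore stricter in the simulation, and its rates do not describe the WT response. The number of arrays limits the precision. Alternatives were other pseudocounts, filters, scalings, variance models and thresholds, the replicate number as a block, and leaving out each array.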

Additional observations from a re-analysis of the deposited data

Results flagged for a closer look

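The results below stand out because the response to PPT differed between genotypes by a test of the difference itself (limma, adjusted p under 0.05), with n = 2 arrays per group. Each value is a difference of log2 responses.

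Between WT and MOER, 10 members differed. The WT response was lower for 8.99% of members and higher for 2.25%, against 12.7% and 11.2% of all genes. Neither share exceeded that of all genes. Ndufa10 was also lower and Ndufaf2 also higher. The WT response was lower for Cox7a1 (-1.08), Ndufb10 (-0.63), Cox4i1 (-0.62), Ndufaf6 (-0.58), Cox7a2l (-0.56), Ndufv1 (-0.51) and Sdha (-0.48), and higher for Ndufaf4 (0.89).

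Between WT and ERKO, 40 members differed, of which a part is listed. The WT response was lower for 43.8% of members and higher for 1.12%, against 12.2% and 11.4% of all genes. The WT response was lower for Cox8b (-5.35), Cox7a1 (-3.55), Cox6a2 (-1.25), Atp5e (-1.12), Ndufaf6 (-1.01), Ndufs5 (-0.96), Ndufb9 (-0.89), Cox4i1 (-0.86), Uqcr11 (-0.85), Uqcrq (-0.77), Atp5l (-0.71), Cox7a2l (-0.65), Atp5g1 (-0.60), Cox6a1 (-0.56), Cox7b (-0.54), Cox7a2 (-0.53) and Ndufa4 (-0.40), and higher for Ndufaf4 (0.49). The fitted value of Cox8b depends on the 16 added to a dim oil group and is no measured size, and it was tested through the ERKO PPT arrays where it is bright.

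Between MOER and ERKO, 18 members differed, of which a part is listed. The MOER response was lower for 19.1% of members and higher for 1.12%, against 5.08% and 6.53% of all genes. The MOER response was lower for Cox8b (-5.49), Cox7a1 (-2.47), Cox6a2 (-1.12), Ndufs5 (-0.94), Ndufc1 (-0.69), Atp5k (-0.67), Cox7a2 (-0.66), Atp5g1 (-0.62), Cox7b (-0.60) and Ndufaf2 (-0.55), and higher for Sdha (0.77). Here too the fitted value of Cox8b is no measured size, and it was tested through the ERKO PPT arrays where it is bright. The 12 skeletal muscle markers also differed in both comparisons with ERKO, all lower in the WT or MOER response. Some of them were tested only through the ERKO PPT arrays where they are bright. The part of these markers in the members' values was not tested.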

How the results depend on the processing

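No called value of a named member changed sign under any alternative run (1771 values), while 170 of 5309 values of members without a call did. Over all alternatives, 6568 values of named members kept their side of the threshold, 193 passed it and 319 no longer passed it. Main counts of members called were 30 in WT, 0 in MOER, 26 in ERKO, 4 for ERKO minus WT, 2 for MOER minus WT and 0 for MOER minus ERKO under oil, and 10, 40 and 18 for WT minus MOER, WT minus ERKO and MOER minus ERKO responses. In that order, leaving out 1 array gave 16 to 44, 0 to 3, 5 to 48, 0 to 40, 0 to 9, 0 to 9, 3 to 19, 20 to 61 and 6 to 48. The labels do not say whether arrays of the same replicate number share anything else. The r of replicate deviations lay between -0.147 and 0.377 over 15 pairs of groups, and exceeded 0.1 for 5 pairs. It was highest for the pairs of oil groups, at 0.276 for WT and ERKO, 0.354 for WT and MOER and 0.377 for ERKO and MOER. What these arrays may share was not tested. With the replicate block the counts were 27, 0, 24, 4, 3, 0, 10, 37 and 16. Counts that moved by over 1.5 times were these, and the cause was not tested. Array weights gave 53 in WT, 2 in MOER, 5 in ERKO, 2 for ERKO minus WT and 11 for MOER minus WT under oil, 21 for WT minus MOER and 9 for MOER minus ERKO responses. A fit of the contrast's groups alone gave 5 in ERKO, 0 for ERKO minus WT under oil and 5 for MOER minus ERKO responses, with fewer arrays. A variance trend gave 1 in MOER, 17, 6 and 4 in the 3 oil comparisons, 17 for WT minus MOER and 39 for MOER minus ERKO responses. Adding 64 gave 14, 4 and 3 under oil and 30 for MOER minus ERKO responses, and the 60th percentile filter 1 in MOER, 12, 4 and 3 under oil and 29 for that difference. No filter gave 17 in ERKO, 0 for MOER minus WT under oil and 10 for MOER minus ERKO responses. Quantile normalization gave 2 in MOER, 12, 4 and 4 under oil and 18 for WT minus MOER, and median centring 5 for MOER minus WT and 1 for MOER minus ERKO under oil. Median centring moved the median of all genes in MOER minus WT under oil from -0.03 to -0.11. The authors' thresholds (here unadjusted p under 0.0001 and at least 2-fold) gave 0 in WT, 3 in ERKO, 0 for ERKO minus WT and 0 for MOER minus WT under oil, 0 for WT minus MOER and 3 for each difference from ERKO, and at least 1.5-fold gave 7 in WT, 6 in ERKO, 0 for MOER minus WT under oil and 4 for WT minus MOER. Signal over background limits Cox6a2, Cox6b2, Cox8b and Cox8c under oil, which lie near the 40th percentile.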
